A study of Homo sapiens with 6 samples.

Results

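The 7 genes described here encode carriers that bring neutral and cationic amino acids into the cell: SLC7A1, SLC7A5, SLC7A6, SLC1A4, SLC1A5, SLC38A1 and SLC38A2. They were taken by name from a table of 58735 genes, in which each had 1 row and each reached 1 FPKM on average over the libraries. FPKM counts sequenced fragments relative to the gene's length and to the depth of the library. The cells were MDA-MB-231, an established human line of basal-like breast adenocarcinoma, labelled genotype WT and named SCR in the sample descriptions, the study's name for its non-targeting short hairpin control (shSCR). There were 3 libraries at 0 Gy and 3 libraries taken 24 h after 10 Gy from a 137Cs irradiator, and all 6 came from polyA-enriched RNA of 1 cell line. The labels do not say whether the 3 libraries of a dose came from separate cultures, so the p-values measure the spread between these libraries, which may be technical. In bulk RNA, a change in the number of cells of a kind and a change in RNA per cell cannot be told apart.

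The libraries held between 15643641 and 28861781 reads assigned to genes, and the rows of the 7 transporters held between 183 and 16472 of them in a library. Of 8 markers chosen for MDA-MB-231, 7 had a mean of at least 1 FPKM at 0 Gy, with VIM at 301 ± 9.54 FPKM (SD, n = 3), while SPARC was at 0.270. These 8 markers summed to between 973 and 1006 FPKM at 0 Gy and to between 827 and 851 FPKM at 10 Gy. Of 6 luminal receptors and regulators, ESR1 was at 0.00872 FPKM and PGR at 0 at 0 Gy, while ERBB2 was at 7.08 and GATA3 at 3.05 FPKM, and the set summed to between 10.1 and 11.0 FPKM at 0 Gy and to between 10.9 and 11.1 FPKM at 10 Gy. The 5 leukocyte markers summed to between 1.39 and 2.59 FPKM at 0 Gy and to between 2.06 and 3.21 FPKM at 10 Gy, nearly all of it CD14, while CD3E was at 0 in all 6 libraries. The 5 fibroblast markers summed to between 3.00 and 3.12 FPKM at 0 Gy and to between 4.07 and 4.39 FPKM at 10 Gy, nearly all of it COL1A1. The 4 endothelial markers summed to between 2.16 and 2.49 FPKM at 0 Gy and to between 2.82 and 3.15 FPKM at 10 Gy. The part of these markers in the results below was not tested.

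Amino acids cross the plasma membrane through carriers that differ in what they bind and in what drives them. SLC1A5 (ASCT2) and SLC1A4 (ASCT1) are sodium-dependent exchangers of small neutral amino acids, and SLC1A5 is best known for glutamine. SLC38A1 (SNAT1) and SLC38A2 (SNAT2) couple glutamine, alanine and other neutral amino acids to sodium and so accumulate them. SLC7A5 (LAT1) and SLC7A6 (y+LAT2) are light chains that reach the membrane only as heterodimers with the heavy chain SLC3A2 (CD98hc, 4F2hc). SLC7A5 takes up leucine and other large neutral amino acids in exchange for intracellular ones, SLC7A6 exchanges cationic for neutral amino acids, and SLC7A1 (CAT1) carries arginine and lysine. Leucine and arginine entering through these carriers are sensed by the mTORC1 pathway, and many tumors express SLC1A5 and SLC7A5 at high levels.

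At 0 Gy, SLC1A5 and SLC7A5 were the most abundant of the 7 mRNAs. SLC1A5 was at 102 ± 2.15 FPKM and SLC7A5 at 98.5 ± 0.169 FPKM (SD, n = 3). SLC38A1 followed at 62.4 ± 3.35 FPKM and SLC38A2 at 58.0 ± 2.77 FPKM, and the ranges of these neighbours overlapped. SLC7A1 was at 40.3 ± 2.28 FPKM. SLC7A6 at 4.42 ± 0.356 FPKM and SLC1A4 at 2.04 ± 0.0541 FPKM were far below the others, so that the highest and lowest member differed 50.1-fold. Apart from SLC38A1 and SLC38A2, the ranges of neighbours in this order did not overlap. Among the 12128 genes that reached 1 FPKM on average, SLC1A5 ranked 375, SLC7A5 392 and SLC1A4 10004 at 0 Gy. The heavy chain SLC3A2 stood at 73.2 ± 2.49 FPKM. Of 52 amino acid carriers and subunits listed, 23 passed the same filter, and 5 of the 6 with the highest level at 0 Gy were members.

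**Figure D1:**
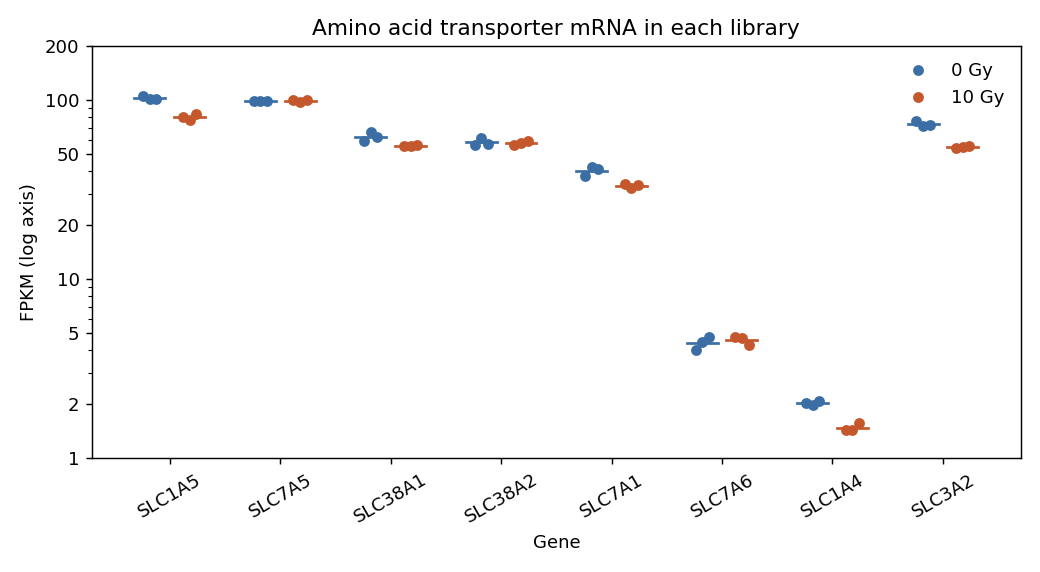
FPKM (log axis) of the 7 transporters and the heavy chain SLC3A2 in each of the 3 libraries at 0 Gy (blue) and the 3 at 10 Gy (orange), with a bar at the mean of each group. The groups are separate for SLC1A5, SLC38A1, SLC7A1, SLC1A4 and SLC3A2, and overlap for SLC7A5, SLC38A2 and SLC7A6.

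At 24 h after 10 Gy, 4 of the 7 transporter mRNAs were lower and none was higher: SLC1A5, SLC7A1, SLC1A4 and SLC38A1 fell, while SLC7A5, SLC38A2 and SLC7A6 did not pass the test. The test was limma on log2(FPKM + 1) over 12128 genes with Benjamini-Hochberg adjustment, and a gene was called at an adjusted p under 0.05. By this rule 35.6% of all genes tested were called, 23.7% lower and 11.9% higher. Without replicate 1 of the 10 Gy group 15.2% were lower and 7.24% higher, and without replicate 2 of that group 14.9% and 6.99%. The groups did not overlap for the same 4 members, against 51.9% of all genes tested, 32.8% lower and 19.1% higher. Among genes that averaged 20 FPKM or more, a limit chosen after the values were seen, 47.0% were called lower, and of the 5 members above that limit 3 were. The median log2 change was -0.17 over the 7 members and -0.039 over all genes tested.

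The split depends in part on how the libraries were scaled. The depth that the deposited FPKM imply was 0.973, 0.983 and 0.991 times the reads assigned to genes at 0 Gy. At 10 Gy it was 1.036, 1.039 and 1.028 times those reads. The part of this difference in the calls was not tested. With the values rescaled so that each library sums to the same total (TPM), the median log2 change of all genes was 0.068 and 74.5% of called genes were higher, against 33.4% as deposited, 48.7% with median of ratios scaling and 63.9% with upper quartile scaling. In TPM, 2 of the 7 members were called lower, SLC1A5 and SLC1A4, and SLC7A5 was called higher, beside 8.83% of all genes called lower and 25.8% called higher. Set against the median of all genes in the same scaling, SLC1A5 was at -0.30 as deposited and at -0.28 in TPM, SLC7A1 at -0.23 and -0.22, SLC1A4 at -0.26 and -0.28, and SLC38A1 at -0.13 and -0.11. On the same measure SLC7A5 was at 0.045 as deposited and 0.066 in TPM, SLC38A2 at 0.026 and 0.045, and SLC7A6 at 0.077 and 0.075.

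**Figure D2:**
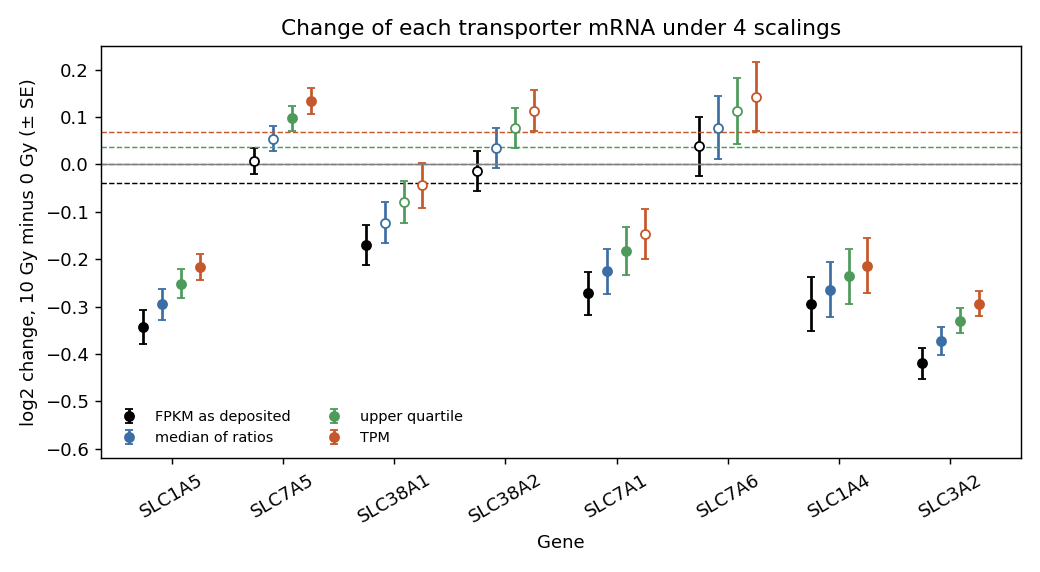
log2 change (10 Gy minus 0 Gy, with limma's standard error, 3 libraries per dose) of each transporter under 4 scalings; filled points passed an adjusted p of 0.05, and the dashed lines are the median of all genes in each scaling. SLC1A5, SLC1A4 and SLC3A2 stay below 0 and called under all 4, and SLC7A5 moves from 0.0065 as deposited to 0.13 in TPM.

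SLC1A5 fell the most of the members on the log2(FPKM + 1) scale, while SLC1A4 had the larger change with a pseudocount of 0.1 FPKM and with voom on the recovered reads. Its level was 105, 101 and 101 FPKM in the libraries at 0 Gy and 80.4, 77.6 and 83.1 FPKM in those at 10 Gy. Every irradiated library was below every control, and the mean was 21.3% lower. The log2 change was -0.34 with a standard error of 0.0360 (95% interval -0.43 to -0.26), and the adjusted p was 0.000986 (limma, Benjamini-Hochberg). The call held under each of the 16 alternatives tried, with log2 changes between -0.37 and -0.22. SLC1A5 lies on the minus strand at chr19:46774883-46788594 (GRCh38).

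SLC1A4, the closest relative of SLC1A5 among the members, also fell. It was at 2.04, 1.99 and 2.10 FPKM at 0 Gy and at 1.43, 1.44 and 1.56 FPKM at 10 Gy, with no overlap. These values rest on 183 to 315 reads per library. The mean was 27.5% lower. The fitted change was -0.29 (95% interval -0.43 to -0.16, limma, adjusted p = 0.00833), and with a pseudocount of 0.1 in place of 1 FPKM, which shrinks a gene at this level less, it was -0.44. The ratio of SLC1A5 to SLC1A4 within a library was 50.1 ± 1.51 at 0 Gy and 54.3 ± 1.61 at 10 Gy, with no overlap between the groups. The same ratio on the log2(FPKM + 1) scale moved the other way, by -0.048, and the groups overlapped (two-sided exact permutation p = 0.2, adjusted p = 0.25), so no direction is given for it.

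SLC38A1 and SLC38A2 are neighbours on chromosome 12 as well as close relatives. SLC38A1, at chr12:46183063-46270017 on the minus strand, was at 59.2, 65.9 and 62.1 FPKM at 0 Gy and at 55.0, 55.0 and 55.9 FPKM at 10 Gy. The groups did not overlap, but the gap between the lowest control and the highest irradiated library was smaller than the range of the controls. Its log2 change was -0.17 (SE 0.0419, 95% interval -0.27 to -0.072, limma, adjusted p = 0.0190). Of the 4 calls this one was lost most often. It did not hold in TPM (-0.044, limma, adjusted p = 0.499), with upper quartile scaling (-0.080, adjusted p = 0.210), with median of ratios scaling (-0.12, adjusted p = 0.0640), with no filter on low values (adjusted p = 0.0615) and without replicate 1 or replicate 2 of the 10 Gy group (adjusted p = 0.0669 and 0.0681, log2 change -0.17 in both).

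SLC38A2, at chr12:46358189-46372867 on the minus strand, was at 56.1, 61.2 and 56.7 FPKM at 0 Gy and at 55.8, 57.5 and 59.0 FPKM at 10 Gy. The groups overlapped. The log2 change was -0.013 (95% interval -0.11 to 0.086, limma, adjusted p = 0.829), so a change of the size seen for SLC1A5 lies outside its interval, and in TPM it was 0.11 without passing the test (adjusted p = 0.0799). Within each library, the ratio of SLC38A2 to SLC38A1 does not depend on scaling. It was 0.948, 0.928 and 0.913 at 0 Gy and 1.01, 1.05 and 1.06 at 10 Gy. SLC38A1 was thus the higher of the pair in each control and SLC38A2 in each irradiated library. The log2 ratio, with 1 FPKM added to both, moved by 0.16 with no library of 1 dose inside the range of the other (two-sided exact permutation p = 0.1, the lowest possible with 3 libraries a group; adjusted p = 0.167 over 5 ratios).

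SLC7A1, the carrier of arginine and lysine, fell. It was at 37.7, 41.9 and 41.3 FPKM at 0 Gy and at 33.9, 32.3 and 33.3 FPKM at 10 Gy, with no overlap, and the mean was 17.7% lower. The log2 change was -0.27 (SE 0.0454, 95% interval -0.38 to -0.17, limma, adjusted p = 0.00458). In TPM it was -0.15 and no longer called (limma, adjusted p = 0.0669). SLC7A1 lies at chr13:29509410-29595688 on the minus strand. SLC7A2, the other cationic carrier that passed the filter, was at 6.21 ± 0.726 FPKM at 0 Gy and 6.32 ± 0.141 FPKM at 10 Gy (limma, adjusted p = 0.803).

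**Figure D3:**
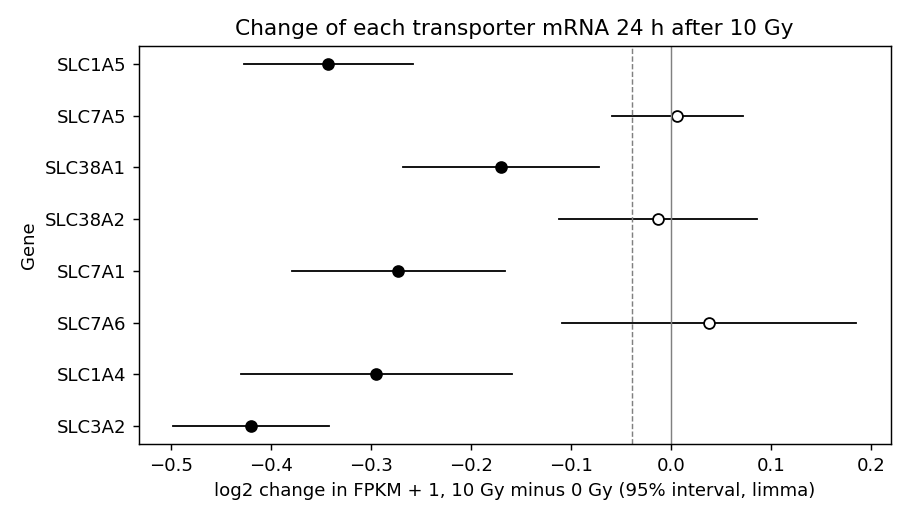
Fitted log2 change in FPKM + 1 with its 95% interval (limma, 3 libraries per dose) for each transporter and SLC3A2; filled points were called lower, the solid line is 0 and the dashed line the median of all 12128 genes, -0.039. SLC3A2 at -0.42 and SLC1A5 at -0.34 lie farthest to the left, and the intervals of SLC7A5, SLC38A2 and SLC7A6 include 0.

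SLC7A5, at chr16:87830023-87869488 on the minus strand, had almost the same FPKM in all 6 libraries: 98.6, 98.7 and 98.4 at 0 Gy and 99.2, 97.6 and 100.2 at 10 Gy. The groups overlapped, and the log2 change was 0.0065 (SE 0.0278, 95% interval -0.059 to 0.072, limma, adjusted p = 0.873). The interval covers ratios of FPKM + 1 between 0.960 and 1.05. In TPM its log2 change was 0.13 (limma, adjusted p = 0.00889) and with upper quartile scaling 0.097 (adjusted p = 0.0274), so it was called higher in both. SLC7A5P1 and SLC7A5P2, pseudogenes named for SLC7A5, were listed at 0 in all 6 libraries, and how reads shared with them were counted is not given in the sources used here.

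The heavy chain SLC3A2, at chr11:62856102-62888875 on the plus strand, fell. It was at 76.1, 71.6 and 72.0 FPKM at 0 Gy and at 54.2, 54.3 and 54.9 FPKM at 10 Gy, and the mean was 25.6% lower. Its log2 change of -0.42 (SE 0.0332, 95% interval -0.50 to -0.34, limma, adjusted p = 0.000586) exceeded in size that of each member on this scale, but not that of SLC1A4 with a pseudocount of 0.1 FPKM (-0.43 against -0.44) or with voom on the recovered reads (-0.38 against -0.42), and the call held under each of the 16 alternatives. The 95% intervals of SLC7A5 and SLC3A2 did not overlap. The ratio of SLC7A5 to SLC3A2 FPKM was 1.30, 1.38 and 1.37 in the controls and 1.83, 1.80 and 1.82 in the irradiated libraries. On the log2(FPKM + 1) scale this was a difference of 0.43 with no overlap (two-sided exact permutation p = 0.1, adjusted p = 0.167).

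SLC7A6, the second light chain, was at 4.04, 4.48 and 4.74 FPKM at 0 Gy and at 4.75, 4.66 and 4.27 FPKM at 10 Gy. The groups overlapped, and the log2 change was 0.038 (SE 0.0628, 95% interval -0.11 to 0.19, limma, adjusted p = 0.663). Relative to SLC3A2, the log2 ratio of SLC7A6 was higher by 0.46 with no overlap (exact permutation test, p = 0.1, adjusted p = 0.167), while the log2 ratio of SLC7A5 to SLC7A6 moved by -0.032 and overlapped (p = 0.7). SLC7A6 lies at chr16:68264516-68301823 on the plus strand and shares 3371 exon bases, 44.4% of its exon length, with SLC7A6OS on the minus strand. Whether counting used the strand is not given in the sources used here, so reads of this pair cannot be told apart with certainty; SLC7A6OS was at 2.74 ± 0.107 FPKM at 0 Gy and 2.57 ± 0.125 FPKM at 10 Gy (limma, adjusted p = 0.353).

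**Figure D4:**
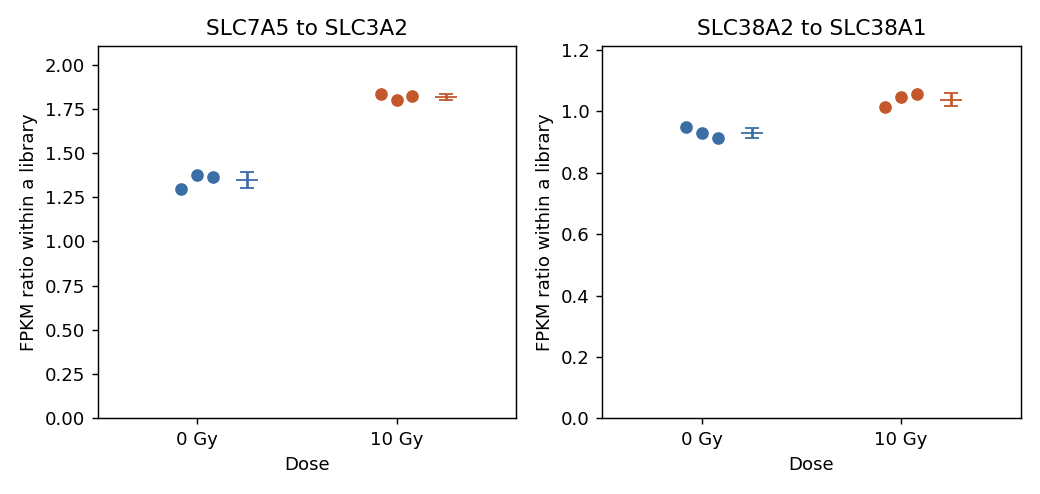
Ratio of FPKM within each library for SLC7A5 to its heavy chain SLC3A2 and for SLC38A2 to SLC38A1, at 0 Gy (blue) and 10 Gy (orange); the bar beside the points is the mean ± SD (n = 3). Both axes start at 0. The SLC7A5 to SLC3A2 ratio lies between 1.30 and 1.38 in controls and between 1.80 and 1.83 after irradiation, and the SLC38A2 to SLC38A1 ratio crosses 1.

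The summed FPKM of the 7 genes was 367.9 ± 6.28 at 0 Gy and 331.3 ± 5.71 at 10 Gy, a ratio of 0.901 with no overlap (two-sided exact permutation p = 0.1). The FPKM of all genes summed to between 269611 and 278380 at 0 Gy and to between 246920 and 254918 at 10 Gy. As a share of all FPKM the sum of the 7 genes was 0.135% at 0 Gy and 0.133% at 10 Gy, and this share overlapped between the doses. Within the sum of the 7 genes, SLC1A5 held 27.8% ± 1.03 at 0 Gy and 24.3% ± 0.423 at 10 Gy, and SLC7A5 held 26.8% ± 0.434 and 29.9% ± 0.167, so that SLC7A5 was the highest of the 7 in every irradiated library and SLC1A5 in every control. The share of SLC38A2 was 15.8% ± 0.492 at 0 Gy and 17.3% ± 0.406 at 10 Gy, and that of SLC7A1 was 11.0% ± 0.475 and 10.0% ± 0.211. These 4 shares and that of SLC1A4 (0.555% and 0.447%) did not overlap between the doses (exact permutation test, p = 0.1 each, adjusted p = 0.14 over 7 shares), and those of SLC38A1 and SLC7A6 did (p = 0.6 and 0.2). The gap between the highest and the lowest member was 66.9-fold at 10 Gy.

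The windows before the annotated starts of the 3 members below are shown since SLC1A5 and SLC7A1 fell and SLC7A5, as abundant as SLC1A5, was not called. Each run is the 250 bases before a RefSeq start (GRCh38.p14), 5′ to 3′ on the gene's strand, with the letters of a searched motif in capitals. The start chosen is the one nearest the outer end of the gene in the deposited table. They are SLC1A5 on the minus strand at chr19:46788595-46788844, SLC7A1 on the minus strand at chr13:29595689-29595938 and SLC7A5 on the minus strand at chr16:87869508-87869757.
SLC1A5: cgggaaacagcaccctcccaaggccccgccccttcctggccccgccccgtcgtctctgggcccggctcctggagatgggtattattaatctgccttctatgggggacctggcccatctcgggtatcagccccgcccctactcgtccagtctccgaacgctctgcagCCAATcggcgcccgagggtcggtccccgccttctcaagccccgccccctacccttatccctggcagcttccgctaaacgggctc
SLC7A1: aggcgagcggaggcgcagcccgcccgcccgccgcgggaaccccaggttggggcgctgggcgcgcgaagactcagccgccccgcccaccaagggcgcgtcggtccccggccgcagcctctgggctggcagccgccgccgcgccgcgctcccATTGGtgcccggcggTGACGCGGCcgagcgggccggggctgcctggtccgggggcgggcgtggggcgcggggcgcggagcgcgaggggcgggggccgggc
SLC7A5: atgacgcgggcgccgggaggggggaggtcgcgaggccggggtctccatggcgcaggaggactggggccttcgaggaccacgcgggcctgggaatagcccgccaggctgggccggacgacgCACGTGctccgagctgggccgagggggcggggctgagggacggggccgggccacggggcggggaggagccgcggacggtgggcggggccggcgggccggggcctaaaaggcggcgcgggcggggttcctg
The motifs were the core of the CARE element bound by ATF4 and its partners (TGATGNAA), the E-box of MYC and MAX (CACGTG), the core of the antioxidant response element bound by NRF2 and small MAF proteins (TGACNNNGC) and the CCAAT box, on both strands. They were chosen with the values known and were searched in windows of 300 bases, from 250 before to 50 after the start. These letters are found in 3.62%, 7.26%, 13.3% and 34.6% of 35116 RefSeq promoter windows, in the order given. In the windows printed, SLC1A5 has a CCAAT box at bases -84 to -80, SLC7A1 a reverse CCAAT box at -100 to -96 and an antioxidant core at -85 to -77, and SLC7A5 an E-box at -130 to -125, counted back from the base before the start, which is -1. The GC content of the 250 bases is 66.8% for SLC1A5, 84.4% for SLC7A1 and 79.6% for SLC7A5, against a median of 58.0% over all promoters. In the window nearest the outer end of the other members it is 77.6% for SLC7A6, 73.6% for SLC38A2, 61.6% for SLC38A1 and 48.4% for SLC1A4. That window is also the one that compares with the motif shares above. In it, 1 of the 7 members has a CARE core, 1 an E-box, 3 an antioxidant core and 2 a CCAAT box. Over all 11 windows of the 7 members, a CARE core is in at least 1 window of 4 members (SLC1A4, SLC1A5, SLC38A1 and SLC7A1), an E-box in 2 (SLC1A5 and SLC7A5), an antioxidant core in 4 (SLC1A5, SLC7A1, SLC7A5 and SLC7A6) and a CCAAT box in 3 (SLC1A4, SLC1A5 and SLC7A1). SLC38A2 has none of these letters in its window. A member with several starts has more bases searched, and a match describes letters and not binding.

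Of the 16 other carriers and subunits that passed the filter, 4 fell, none rose and 12 were not called, beside the 23.7% of all genes that were lower and 11.9% that were higher, and in TPM 2 fell and 3 rose, beside 8.83% and 25.8%. SLC7A11, the cystine-glutamate exchanger that also pairs with SLC3A2, fell from 18.8 ± 1.20 to 11.3 ± 0.631 FPKM (log2 change -0.69, limma, adjusted p = 0.000593). SLC15A4, a lysosomal histidine and peptide transporter, fell by 0.22 on the log2 scale (adjusted p = 0.0112), and SLC6A9, the glycine transporter GLYT1, by 0.21 (adjusted p = 0.0232). Both of these calls were lost in TPM and with upper quartile scaling, and that of SLC6A9 also with no filter on low values, with the replicate number as a block (adjusted p = 0.0617) and without any 1 library other than replicate 1 of the 0 Gy group (adjusted p between 0.0506 and 0.0785). Of the remaining SLC38 genes, 4 were tested and none was called as deposited, but SLC38A9 was called higher in TPM (log2 change 0.20) and with voom on the recovered reads (0.21), and SLC38A6 lower with eBayes without trend and among protein-coding genes alone (-0.17 in both). The 29 listed carriers that did not pass the filter were at most at 0.821 FPKM at 0 Gy, and 9 of them were listed at 0 in all 6 libraries. Their changes were not tested. Some were higher at 10 Gy with no overlap between the groups. These were SLC43A2 (0.718 FPKM at 0 Gy and 1.06 at 10 Gy), SLC7A7 (0.463 and 0.607) and SLC6A14 (0.184 and 0.271). SLC38A4 was lower with no overlap (0.821 and 0.701). SLC7A7 rested on 33 to 97 reads per library and SLC6A14 on 12 to 40. The share of genes under the filter with no overlap was not counted. Among the 12128 genes tested, 19.1% were higher and 32.8% lower with no overlap, so these rows are a description alone.

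**Figure D5:**
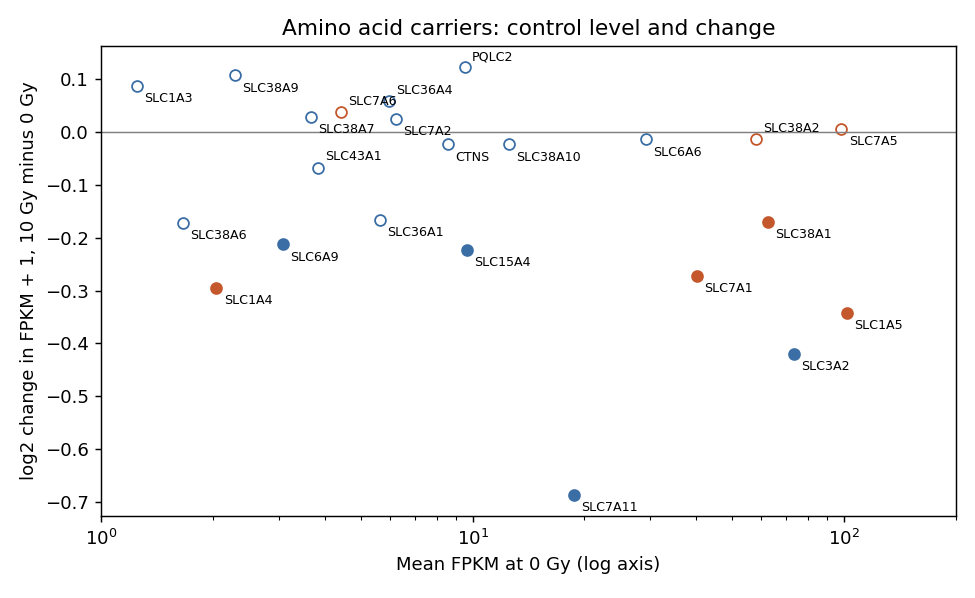
Mean FPKM at 0 Gy (log axis) against the fitted log2 change in FPKM + 1 for the 23 amino acid carriers and subunits tested, with the 7 members in orange and the 16 others in blue; filled points were called lower. SLC7A11 at -0.69 lies lowest, and among the carriers above 30 FPKM the levels of SLC7A5 and SLC38A2 lie on the zero line.

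Genes that act on these carriers or on what they carry were counted from lists written from general knowledge. The counts below stand beside 23.7% of all genes lower and 11.9% higher as deposited, with a median log2 change of -0.039, and 8.83% lower and 25.8% higher in TPM, with a median of 0.068. Of 14 regulators of transporter transcription or turnover, 7 fell, 1 rose and 6 were not called, with a median log2 change of -0.087. TRIB3, a pseudokinase induced by and acting back on ATF4, fell from 16.8 ± 0.956 to 10.5 ± 0.141 FPKM (log2 change -0.63, limma, adjusted p = 0.000439). MYC, which drives SLC1A5 and SLC7A5 transcription in many tumor cells, fell from 64.6 ± 1.55 to 45.6 ± 1.26 FPKM (log2 change -0.49, adjusted p = 0.000439), and NEDD4, a ubiquitin ligase, by 0.46 on the log2 scale (adjusted p = 0.00140). These 3 calls held in TPM, where 5 of the 14 fell and 3 rose.

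Of 30 genes of mTORC1 or of amino acid sensing upstream of it, 10 fell and 2 rose, beside 23.7% and 11.9% of all genes. Their median was -0.11. In TPM 2 fell and 6 rose, beside 8.83% and 25.8% of all genes. MLST8, a subunit of mTORC1, fell by 0.35 on the log2 scale and SEH1L, a subunit of GATOR2, by 0.28, while WDR59, another GATOR2 subunit, rose by 0.28 (limma, adjusted p = 0.00317, 0.00163 and 0.00855). These 3 calls held in TPM. Of 18 enzymes of glutamine, arginine and asparagine metabolism, 8 fell and 2 rose as deposited, with a median of -0.17, beside 23.7% and 11.9% of all genes, and 3 fell and 3 rose in TPM, beside 8.83% and 25.8%. CTPS1, which uses glutamine to make CTP, fell by 0.28, the transaminase GPT2 by 0.26 and the aspartate transaminase GOT2 by 0.25 on the log2 scale (limma, adjusted p = 0.00229, 0.00441 and 0.00193), and the call of GPT2 was lost in TPM. Of 9 genes of branched-chain amino acid breakdown, 3 fell and 1 rose, with a median of -0.063, beside 23.7% and 11.9% of all genes, and in TPM 2 fell and 3 rose, beside 8.83% and 25.8%. BCAT1, the cytosolic branched-chain transaminase, fell by 0.28 and DLD, a subunit shared by several dehydrogenase complexes, by 0.27, and MCCC2, of leucine breakdown, rose by 0.28 on the log2 scale (limma, adjusted p = 0.00178, 0.00151 and 0.00169).

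The genes whose log2(FPKM + 1), less its mean at 0 Gy, lay closest to that of SLC1A5 over the 6 libraries were FH, the fumarase of the citric acid cycle (Euclidean distance 0.0271), LAMB3, a laminin chain (0.0311), and GAR1, a small nucleolar ribonucleoprotein (0.0347). On the same measure SLC1A4 ranked 136 and SLC3A2 404 among the genes tested, SLC7A1 869 and SLC38A1 2476. SLC38A2, SLC7A5 and SLC7A6 ranked 6448, 6751 and 8039.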

How the data were processed

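RNA of MDA-MB-231 cells was sequenced by Novogene from polyA-enriched libraries, 3 at 0 Gy and 3 at 10 Gy, and libraries were grouped by the treatment in the labels. The authors deposited FPKM values, and the submitters' processing notes name HISAT2 and GRCh38. The counting program and its strand setting are not given in the sources used here. Identifier, start, end and strand of all 58735 genes are those of GENCODE 29. Reads were recovered from FPKM, gene length and implied depth, and 100% of values above 0 came out within 0.05 of a whole read. These reads give the depth and 1 alternative test.

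The comparison used limma 3.58.1 (R 4.3.3) with log2(FPKM + 1) as input and a trended eBayes, for the 12128 genes that averaged 1 FPKM or more, with Benjamini-Hochberg adjustment over all of them. No count test was used for this main comparison, and voom on the recovered reads was an alternative. Shares and ratios within a library were compared by exact permutation tests. The limma fit was also run on simulated data, and no result given here rests on that run.

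The alternatives were a pseudocount of 0.1 FPKM, no filter, a filter at 5 FPKM, TPM, upper quartile and median of ratios scaling, a replicate block, eBayes without trend, protein-coding genes alone, voom on the recovered reads and leaving out each library.

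The members and the gene lists were chosen with earlier results of these data known. The text names the 7 members, SLC3A2, for each list the 3 called genes with the largest change, rows that overlap a member or carry its symbol as a pseudogene, and the 3 genes nearest SLC1A5. SLC7A2, the markers and the other genes named outside this rule were chosen after their values were seen or are background. Promoter windows came from RefSeq on GRCh38.p14, and each of the 7 members matched. Some rows that this rule or the marker lists would name are not reported here.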

Additional observations from a re-analysis of the deposited data

How the results depend on the processing

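The calls of SLC1A5 (16 alternatives), SLC1A4 (15, since it could not pass a filter at 5 FPKM) and SLC3A2 (16) held throughout. With TPM, 2 members were called lower; SLC7A1 had a log2 change of -0.15 and SLC38A1 of -0.044, both no longer called, and SLC7A5 of 0.13, called higher. Upper quartile scaling gave 0.097 for SLC7A5, called higher, and -0.080 for SLC38A1. SLC38A1 was also not called with median of ratios scaling (-0.12) or with no filter on low values (-0.17, where more genes are tested). SLC38A2, never called, turned to 0.11 in TPM, 0.077 with upper quartile scaling, 0.034 with median of ratios scaling and 0.036 with voom on recovered reads. The log2 ratio of SLC1A5 to SLC1A4 was 0.093 with a pseudocount of 0.1 FPKM. The cause of these differences was not tested.

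Leaving out 1 library at a time gave 2651 to 3975 called genes, against 4317 with all 6, and 3 or 4 members called lower. The lowest counts came without replicate 2 (2651) and without replicate 1 (2711) of the 10 Gy group, where fewer libraries were fitted. Log2 changes then ranged from -0.21 to -0.13 for SLC38A1, from -0.0022 to 0.017 for SLC7A5, from -0.013 to 0.081 for SLC7A6 and from -0.036 to 0.025 for SLC38A2. With no filter on low values 2912 of 31650 genes were called.

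The deviations of same-numbered libraries from their group means correlated at -0.040, -0.035 and -0.10. Those of differently numbered libraries correlated at between -0.052 and 0.094. With means over 3 libraries, these values show no pairing by number but cannot tell whether the libraries were prepared in pairs. With the replicate block 3503 genes were called, and the block changed no call of a member, while SLC6A9 lost its call under it (adjusted p = 0.0617, limma, Benjamini-Hochberg). Of 238 alternative values of 15 other named genes, 226 kept their direction and call and 12 lost the call, for SLC6A9, SLC15A4 and GPT2. These 15 were named because they were called with the largest change of their list. None could gain a call, and the count does not measure how stable other genes are. SLC38A9 and SLC38A6, not called as deposited but called under some alternatives, are not among the 15.

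With 3 libraries per dose, an exact permutation test cannot go below 0.1. SLC1A4 rests on at most 315 reads per library.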
